A study of Mus musculus with 28 samples.

Results

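Ribosome profiling was used to follow 8 mouse genes of cholesterol synthesis and its control, Hmgcs1, Idi1, Fdps, Sqle, Cyp51, Dhcr7, Srebf2 and Insig1, in cells that expressed human TDP-43. The genes were chosen by name, as members of the pathway, out of 45513 genes listed in the count tables, and all 8 were found. The study asked which mRNAs change in translation when hTDP-43 or its ALS-linked mutant hTDP-43 A315T is expressed, and it measured ribosome footprints and poly(A)-selected total mRNA from the same cultures in 28 libraries. MN1 cells, a clonal hybrid line of mouse spinal motor neurons and neuroblastoma, were transiently transfected with a plasmid for hTDP-43, for hTDP-43 A315T or, as the control, for GFP (2 cultures each) and received 100 µg/ml cycloheximide, which stalls elongating ribosomes, for 3 min before lysis. Primary cortical neurons came from E16 C57BL/6J embryos, either WT (2 cultures) or carrying hTARDBP or hTARDBP A315T under the prion protein promoter (3 cultures each). The hTDP-43 plasmids of MN1 cells carried a CMV promoter. Per the study's methods, MN1 cells grew in DMEM with fetal bovine serum, and neurons in a neurobasal medium with the supplement NSF-1. All neuron cultures received 0.5 µM Ara-C, which limits the growth of dividing cells, and were harvested at DIV14, without the cycloheximide pulse of the MN1 cells. The cultures of a group carry different dates in the titles, though the labels name no litters or passages. The p-values rest on the spread between these cultures, which the test estimates for each gene partly from the other genes.

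Cholesterol is built from acetyl-CoA through mevalonate, isoprenoid diphosphates, squalene and lanosterol. Hmgcs1 makes HMG-CoA, from which mevalonate is formed. Idi1 isomerises isopentenyl diphosphate, Fdps condenses isoprenoid units into farnesyl diphosphate, Sqle oxidises squalene, Cyp51 demethylates lanosterol and Dhcr7 carries out a late reduction to cholesterol. Srebf2 encodes the transcription factor SREBP-2, which drives these genes when sterol in the endoplasmic reticulum is low, and Insig1, itself a target, holds the SREBP escort protein SCAP in the endoplasmic reticulum when sterol is abundant. In the brain, cholesterol is made locally, and astrocytes are known as a major source for mature neurons.

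The promoter is where SREBP-2 acts on its targets. The stretch before the start is shown for Hmgcs1, Srebf2 and Insig1. Hmgcs1 had the largest difference between the cell types, and Insig1 was lower in neurons. The genes shown were picked by their levels or role, and a link of promoter letters to the levels was not tested. The sequences are from RefSeq (GRCm38.p6), all on the + strand, and leave out bases inside annotated exons of the gene. They cover chr13:119690101-119690350 for Hmgcs1, chr15:82147019-82147180 for Srebf2 and chr5:28071162-28071362 for Insig1. Capitals mark exact matches to the letters TCACNCCAC, a spelling of the sterol regulatory element, and to the NF-Y box (CCAAT, read as ATTGG on the other strand).
Hmgcs1: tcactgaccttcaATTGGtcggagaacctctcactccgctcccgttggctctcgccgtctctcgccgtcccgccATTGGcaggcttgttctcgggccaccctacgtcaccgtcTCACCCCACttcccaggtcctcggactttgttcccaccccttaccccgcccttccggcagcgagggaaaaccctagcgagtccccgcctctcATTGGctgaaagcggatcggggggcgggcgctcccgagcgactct
Srebf2: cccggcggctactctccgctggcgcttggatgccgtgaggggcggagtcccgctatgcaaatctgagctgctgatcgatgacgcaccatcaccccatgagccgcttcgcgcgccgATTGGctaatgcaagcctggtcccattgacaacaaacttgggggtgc
Insig1: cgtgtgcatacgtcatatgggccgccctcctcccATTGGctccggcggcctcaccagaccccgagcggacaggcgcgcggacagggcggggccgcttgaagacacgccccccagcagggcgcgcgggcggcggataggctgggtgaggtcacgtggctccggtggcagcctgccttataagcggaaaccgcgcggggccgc

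Windows of 250 bases before to 50 after the start were at hand for 6 of the 8 genes, not for Fdps and Sqle, and were searched on both strands for exact matches. Among these 6, the sterol regulatory element letters were found only in Hmgcs1, from position -137 to -129 before its start, and in 1.24% of the 32851 windows of all genes. The NF-Y box was found in at least 1 window of all 6 genes (41.1% of all genes with a window held it). Hmgcs1 had 4 matches, the last of them after the start and so outside the stretch printed. In Dhcr7 the box was found only in the last of 3 windows, which lies inside the annotated gene. The Sp1 box (GGGCGG) was likewise found in all 6 (38.2% of all genes with a window). These are matches of letters, not sites, and the motifs do not overlap one another in Hmgcs1. Only this spelling of the sterol regulatory element was searched. Near matches, such as 1 with a different last letter in Srebf2, were not counted, so windows without a match may hold other forms of it.

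Depth limited what could be seen. MN1 libraries held 332370 to 1219222 footprint reads and 1328528 to 2988339 total mRNA reads assigned to genes, and neuron libraries 166064 to 2528820 and 600385 to 6969578. The WT replicate 3 and hTDP-43 replicate 3 neuron cultures stood apart in total mRNA, where Lars2 took up to 18.8% of reads. Neuron markers (8 genes) summed to 7318 to 8830 CPM in neuron footprints against 659 to 806 CPM in MN1, and 3 of 6 motor neuron markers reached 10 reads in any MN1 library. The tables count mouse genes only, so the human transgene has no entry of its own. In MN1 cells, total mRNA counted as mouse Tardbp was 224 to 246 CPM with GFP. It was 347 to 416 CPM with hTDP-43 and 381 to 425 CPM with hTDP-43 A315T. The ranges of the 3 neuron genotypes overlapped. In neuron footprints Tardbp was 101 to 105 CPM in WT, above the 66.7 to 84.5 CPM with hTDP-43 and 79.1 to 98.4 CPM with hTDP-43 A315T. Whether reads of the human transgene are counted with mouse Tardbp was not tested. At the protein level, the paper reports less endogenous TDP-43 in MN1 cells transfected with either form. Levels are given as CPM, a gene's reads as a share of the library's total after TMM scaling over the 14 libraries of a type, and differences between groups as log2 values from edgeR, called at a Benjamini-Hochberg adjusted p under 0.05 over all genes tested.

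In the build of the files (GRCm38.p4), Hmgcs1 lies at chr13:119690462-119708086, Sqle at chr15:59315077-59331192, Idi1 at chr13:8885501-8892451, Insig1 at chr5:28071363-28078662, Srebf2 at chr15:82147266-82205376 and Dhcr7 at chr7:143823145-143848410, all on the + strand. Fdps at chr3:89093588-89101959 and Cyp51 at chr5:4081145-4104746 are on the - strand. Reads were counted over all annotated exons of a gene, untranslated ones included. Of the 8 genes, 4 matched near-identical sequences annotated as other genes, and Fdps also had few reads. Fdps (ENSMUSG00000059743) had only 332 footprint reads and 1079 total mRNA reads over all libraries. It shares 26.7% of its exon bases with Gm43738 on the same strand, where a read cannot be assigned to 1 gene, and 3 processed pseudogenes at 96.1% to 98.9% identity were counted beside it. Idi1 (ENSMUSG00000058258) has a processed pseudogene, Gm13502, identical over 684 bases. A sequence identical to Hmgcs1 over 462 bases and a processed pseudogene of Insig1, Gm37784, at 98.9% identity over 189 bases, are also annotated. The position of the sequence identical to Hmgcs1 was not checked, so it may belong to the same locus and is not shown to be a separate copy. How many reads these matches cost each of the 4 genes was not tested. The annotated exons of Cyp51 share 166 bases with Akap9 on the opposite strand, 3.76% of their length. The exons of the other 6 genes overlapped no other annotated gene.

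Hmgcs1 was the gene with the highest level per length among the 8 in neurons and differed most between the cell types. In total mRNA it stood at 166 and 167 CPM in the GFP cultures of MN1, 153 and 138 CPM with hTDP-43, and 144 and 155 CPM with hTDP-43 A315T. Neurons held 993 and 1087 CPM in WT, 1235, 925 and 982 CPM with hTDP-43, and 1157, 984 and 956 CPM with hTDP-43 A315T. The lowest neuron library was thus far above the highest MN1 library. Both GFP cultures were above all 4 cultures with either transgene in MN1 cells, and the hTDP-43 range covered the WT values in neurons. In footprints Hmgcs1 stood at 176 to 246 CPM (median 193) over the 6 MN1 cultures and 1991 to 2510 CPM (median 2335) over the 8 neuron cultures. Hmgcs1 was 6.78-fold higher in neurons in total mRNA (log2 difference 2.76, SE 0.13, edgeR adjusted p = 5.0e-11) and 11.7-fold higher in footprints (3.54, SE 0.12, edgeR adjusted p = 1.2e-16).

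**Figure D1:**
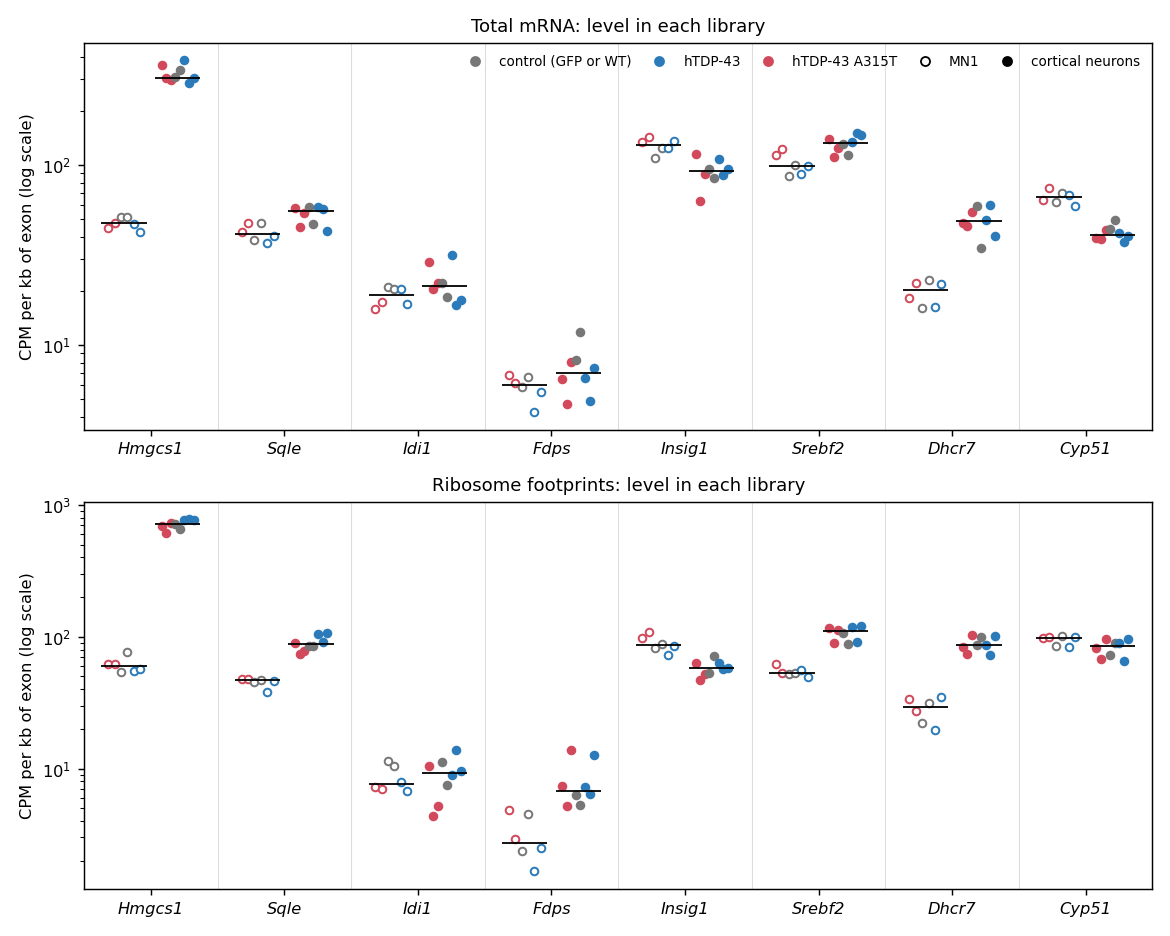
Level of each gene in every library, as CPM per kb of exon on a log scale, for total mRNA (top) and footprints (bottom). Open circles are MN1 cultures (n = 6), filled circles neuron cultures (n = 8), colours the genotypes and lines the medians. Hmgcs1 and Dhcr7 were higher in every neuron library than in any MN1 library in both panels. The share of all genes that separate in this way was not counted.

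Neurons and MN1 cells differed across the pathway, but not in 1 direction. In total mRNA, 4 of the 8 genes were higher in neurons (42.6% of all 12801 genes tested were) and 2 were lower (38.4% of all genes). In footprints, 5 of 8 were higher (42.7% of 10698 genes tested) and 1 was lower (39.9%). With 8 genes and such shares over all genes, the counts themselves are not read as setting the genes apart. The median log2 difference of the 8 genes was 0.34 in total mRNA and 0.96 in footprints, against 0.09 and 0.05 over all genes. Cell type, culture medium with or without listed serum, Ara-C, plasmid transfection, cycloheximide before lysis, and culture date differed together. Their parts in these differences cannot be told apart. Nor, in bulk samples, can fewer cells of a type be told from less RNA per cell.

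Dhcr7, which acts at the end of the pathway, was the second gene higher in every neuron library in both measures. How many of all genes separate in this way was not counted. In total mRNA 42.6% of all genes were called higher in neurons, and in footprints 42.7%. Its total mRNA was 61.2 and 87.5 CPM in the GFP cultures, 61.7 and 83.0 CPM with hTDP-43 and 69.4 and 83.9 CPM with hTDP-43 A315T in MN1 cells. In neurons it was 225 and 131 CPM in WT, 188, 228 and 152 CPM with hTDP-43, and 181, 174 and 209 CPM with hTDP-43 A315T. The log2 difference was 1.32 (SE 0.16, edgeR adjusted p = 2.1e-06) in total mRNA and 1.67 (SE 0.14, edgeR adjusted p = 4.8e-10) in footprints. Footprints ranged from 74.0 to 132 CPM in MN1 cells and from 274 to 390 CPM in neurons.

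The regulators moved apart from each other. Srebf2 footprints were 260 and 266 CPM in the GFP cultures, 279 and 249 CPM with hTDP-43, and 311 and 265 CPM with hTDP-43 A315T. In neurons they were 531 and 439 CPM in WT, 593, 456 and 600 CPM with hTDP-43, and 579, 450 and 566 CPM with hTDP-43 A315T. Every neuron value was above every MN1 value, and the log2 difference was 0.94 (SE 0.11, edgeR adjusted p = 1.1e-07). In total mRNA the difference was smaller (0.36, SE 0.11, edgeR adjusted p = 0.0074) and the ranges, 436 to 613 CPM in MN1 cells and 556 to 749 CPM in neurons, overlapped.

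Insig1 went the other way. Its footprints were 253 and 271 CPM in the GFP cultures, 225 and 262 CPM with hTDP-43, and 300.2 and 339 CPM with hTDP-43 A315T. Neurons held 165 and 221 CPM in WT, 194, 177 and 180.1 CPM with hTDP-43, and 196, 144 and 161 CPM with hTDP-43 A315T. The footprint ranges thus did not overlap, narrowly, with a log2 difference of -0.58 (SE 0.11, edgeR adjusted p = 5.7e-05). In total mRNA, 337 to 443 CPM in MN1 cells met 197 to 356 CPM in neurons, and the log2 difference was -0.48 (SE 0.13, edgeR adjusted p = 0.0045).

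Sqle and Cyp51, enzymes on either side of lanosterol formation, differed in direction in total mRNA. Sqle ranged from 204 to 266 CPM in MN1 cells and from 240 to 325 CPM in neurons in total mRNA, with overlap (log2 difference 0.33, SE 0.12, edgeR adjusted p = 0.021). This call was lost (edgeR adjusted p = 0.055 to 0.085) when replicate 1 of any of the 3 MN1 groups or WT replicate 2 of the neurons was left out. Its footprints, at 212 to 265 CPM in MN1 cells and 409 to 594 CPM in neurons, did not overlap (0.97, SE 0.10, edgeR adjusted p = 2.0e-08). Cyp51 total mRNA was lower in every neuron library, at 165 to 218 CPM against 261 to 328 CPM (-0.65, SE 0.10, edgeR adjusted p = 2.8e-05), whereas its footprints overlapped at 290 to 427 CPM against 370.1 to 445 CPM (-0.19, SE 0.12, edgeR adjusted p = 0.15).

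The isoprenoid enzymes Idi1 and Fdps had the lowest levels of the 8 genes. Idi1 was not called in either measure, with log2 differences of 0.26 (SE 0.16) in total mRNA and 0.10 (SE 0.21) in footprints. The total mRNA value passed the test (0.43, edgeR adjusted p = 0.020) when WT replicate 3 and hTDP-43 replicate 3 were left out, and when WT replicate 3 alone was (0.39, edgeR adjusted p = 0.040). Fdps footprints rested on 4 to 24 reads per MN1 library and 5 to 73 per neuron library and stood at 6.98 to 20.2 CPM and 21.9 to 57.7 CPM. The log2 difference of Fdps was 1.29 (SE 0.27, edgeR adjusted p = 1.9e-04) in footprints and 0.35 (SE 0.17, edgeR adjusted p = 0.074) in total mRNA. The latter passed the test when neuron A315T replicate 2 (0.46, edgeR adjusted p = 0.023) or WT replicate 2 (0.42, edgeR adjusted p = 0.032) was left out, and among protein-coding genes only (0.40, edgeR adjusted p = 0.043).

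**Figure D2:**
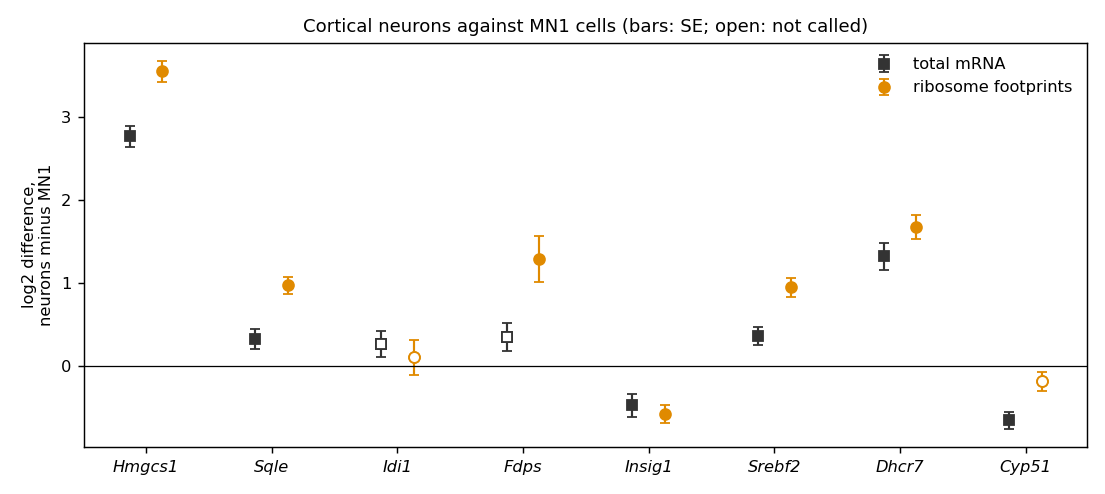
Difference between cortical neurons (8 cultures) and MN1 cells (6 cultures) for each gene, in log2 units, for total mRNA (squares) and footprints (circles), with SE bars and open symbols where the adjusted p was 0.05 or more. Hmgcs1 (2.76 and 3.54) and Dhcr7 lie highest, and Insig1 lies below 0 in both measures.

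Restricting the comparison to the GFP and WT cultures, 2 against 2, left 2 of the 8 genes called in total mRNA, Hmgcs1 and Dhcr7, and 4 in footprints. Fdps (log2 difference 0.87, edgeR adjusted p = 0.066) and Insig1 (-0.39, edgeR adjusted p = 0.13) lost their footprint calls. Astrocyte markers were also higher in the neuron cultures, where the 8 markers summed to 259 to 630 CPM in total mRNA against 6.59 to 26.9 CPM in MN1 cells, where no read fell on Aldh1l1, Gja1 or S100b. Summed microglia markers were at or under 9.30 CPM in all libraries. The part of astrocyte RNA in the neuron values of Hmgcs1, Dhcr7 and the other genes was not tested.

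The order of the genes per length differed between the cell types. In MN1 total mRNA the medians per kb of exon ran from Insig1 (130 CPM per kb) through Srebf2 (99.1), Cyp51 (66.3), Hmgcs1 (47.6), Sqle (41.3), Dhcr7 (20.1) and Idi1 (18.9) to Fdps (6.01). In neuron total mRNA Hmgcs1 (306 CPM per kb) came first, ahead of Srebf2 (133), Insig1 (92.3), Sqle (55.8), Dhcr7 (48.9), Cyp51 (41.2), Idi1 (21.2) and Fdps (7.03). The ranges of neighbours in this order overlapped in neurons for Srebf2 and Insig1 and for Sqle, Dhcr7 and Cyp51, and in MN1 cells for Insig1 and Srebf2, for Hmgcs1 and Sqle, and for Dhcr7 and Idi1. These levels use all annotated exon bases, while footprints fall mainly on coding bases, which make up 25.1% of the exon bases of Insig1 and 69.9% of those of Srebf2, with the other genes between.

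Of 14 further synthesis genes, 11 were higher and 1 lower in neuron total mRNA (median log2 difference 0.83), where 42.6% of all genes were higher and 38.4% lower (median 0.09). In footprints 12 were higher and 2 lower (median 1.31), where 42.7% of all genes were higher and 39.9% lower (median 0.05). Among the largest total mRNA differences were those of Tm7sf2 (2.25), Nsdhl (1.5), Mvk (1.4), Sc5d (1.31) and Msmo1 (1.14), all but Mvk acting after lanosterol. In footprints Tm7sf2 stood at 3.15, Sc5d at 1.78, Nsdhl at 1.74, Msmo1 at 1.61 and Mvk at 1.45. Ebp, a late isomerase, was lower in neurons in both (-0.87 and -0.53), and Lss, which forms lanosterol, was lower in footprints (-0.33) and not called in total mRNA (0.06).

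Of 11 further genes of SREBP control, 6 were lower and 0 higher in neuron total mRNA (median log2 difference -0.57), and 3 were lower and 3 higher in footprints (median 0.18), to be read against the same shares of all genes. The difference between the lists was not tested. Srebf1, which encodes the sister factor that mainly drives fatty acid genes, differed most, by -4.13 in total mRNA (SE 0.18, edgeR adjusted p = 3.1e-11) and -3.26 in footprints. Mbtps1, a protease that releases SREBP, differed by -2.14 and -1.95, and Ubxn8 by -0.79 and -1.64. Mbtps2 (-0.57), Erlin1 (-0.63) and Rnf145 (-0.63) were lower in total mRNA alone. Erlin2 (0.89) and Rnf139 (0.50) were among those higher in footprints.

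Among 7 tested genes of sterol uptake and transport, 2 were higher and 4 lower in total mRNA, and 2 were higher and 3 lower in footprints. Of all genes, 42.6% were higher and 38.4% lower in total mRNA, and 42.7% were higher and 39.9% lower in footprints. The endocytic receptor Lrp1 was higher (3.81 and 4.10), as was the sterol carrier gene Stard4 (0.76 and 0.81), while Npc2 (-1.27 and -1.38) and Scarb1 (-1.04 and -0.98) were lower, and Mylip was lower in total mRNA (-0.64).

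Of 8 tested genes of sterol efflux and turnover, 5 were higher in neurons in total mRNA, and 5 were higher and 1 lower in footprints. For this list and the branches below, 42.6% of all genes were higher and 38.4% lower in total mRNA. In footprints 42.7% were higher and 39.9% lower. Cyp46a1, the neuronal cholesterol hydroxylase, led with log2 differences of 8.14 and 8.77, ahead of Abcg4 (6.78 and 6.73), Abcg1 (6.46 and 7.55) and Apoe (5.15 and 6.36). No MN1 library held more than 17 reads of any of these 4, so their fitted differences depend on the prior count. Osbp (0.26) was the fifth in total mRNA, Abca1 (0.97) the fifth in footprints, and Nr1h2 (-0.53) was lower in footprints. The other branches were split. Of 8 genes of the isoprenoid branch, 2 were higher and 3 lower in each measure, led in total mRNA by Pdss1 (-1.32), Fnta (-1.02) and Fntb (0.99). Of 12 fatty acid genes, 3 were higher and 7 lower in total mRNA, and of the 11 tested in footprints 4 were higher and 5 lower. Acacb (-2.71), Mid1ip1 (-1.41), Elovl6 (1.38), Me1 (-0.94), Fads2 (0.81) and Scd1 (-0.78) differed most in total mRNA.

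Cyp51, Dhcr7 and Hmgcs1 were higher in footprints than in total mRNA in both cell types, and Idi1 and Insig1 were lower in both. In MN1 cells Cyp51 (log2 difference 0.58, SE 0.09), Dhcr7 (0.58, SE 0.16) and Hmgcs1 (0.44, SE 0.10) were higher in footprints, and Idi1 (-1.08, SE 0.12), Fdps (-0.87, SE 0.22), Srebf2 (-0.81, SE 0.09) and Insig1 (-0.46, SE 0.09) were lower, with edgeR adjusted p of 0.0068 or less. These are 3 genes higher and 4 lower, where 27.2% of 10212 genes tested were higher and 30.2% lower. Sqle (0.18, SE 0.09, edgeR adjusted p = 0.12) was called only with the culture as a block (0.19, adjusted p = 0.046). In neurons Hmgcs1 (1.23, SE 0.11), Cyp51 (1.05, SE 0.11), Dhcr7 (0.94, SE 0.14) and Sqle (0.83, SE 0.11) were higher and Idi1 (-1.23, SE 0.21) and Insig1 (-0.56, SE 0.13) lower, with edgeR adjusted p of 0.0017 or less, where 26.6% of 11654 genes were higher and 27.3% lower. Fdps (0.11, SE 0.21) and Srebf2 (-0.22, SE 0.11) were not called in neurons. Srebf2 was called lower there with DESeq2 (-0.28, adjusted p = 0.019), with RLE scaling (-0.29, adjusted p = 0.032) and without hTDP-43 replicate 3 (-0.34, adjusted p = 0.027). In MN1 cells Dhcr7 lost its call without hTDP-43 A315T replicate 1 (0.48, edgeR adjusted p = 0.066). Footprint libraries were not poly(A)-selected and total mRNA libraries were, so these values compare 2 preparations and are not absolute efficiencies.

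The ratio of footprints to total mRNA differed between the cell types for 5 of the 8 genes. As ratios of CPM per culture, Hmgcs1 stood at 1.06 to 1.48 in the 6 MN1 cultures and 1.92 to 2.71 in the 8 neuron cultures. Sqle ranged from 0.987 to 1.19 and from 1.43 to 2.48, and neither gene's ranges overlapped. The share of all genes whose ratios do not overlap was not counted. Srebf2, at 0.433 to 0.630 and 0.609 to 0.917, overlapped in 1 neuron culture, hTDP-43 replicate 2. In the joint fit the log2 ratio was higher in neurons by 0.89 (SE 0.16, edgeR adjusted p = 9.8e-04) for Hmgcs1, 0.75 (SE 0.16, edgeR adjusted p = 0.0040) for Sqle, 0.69 (SE 0.16, edgeR adjusted p = 0.0092) for Srebf2, 0.58 (SE 0.16, edgeR adjusted p = 0.024) for Cyp51 and 1.07 (SE 0.33, edgeR adjusted p = 0.044) for Fdps. These 5 of 8 compare with 5.94% of 12358 genes called higher in neurons, and 0 of 8 with 2.13% called lower. Dhcr7 (0.46, SE 0.22, edgeR adjusted p = 0.20), Idi1 (-0.05, SE 0.27) and Insig1 (0.00) were not called.

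**Figure D3:**
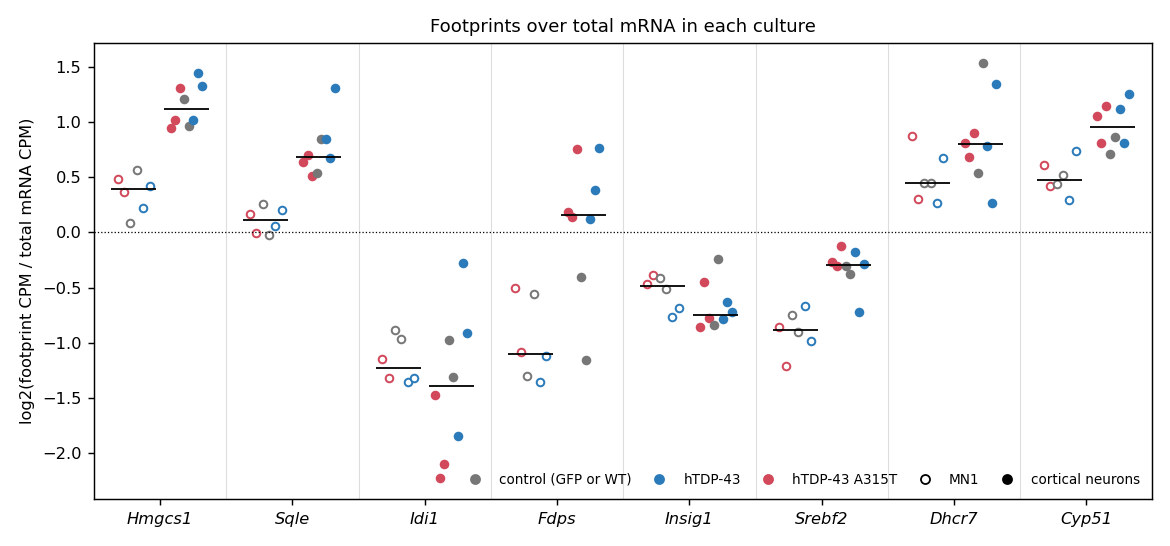
Footprint CPM over total mRNA CPM in each culture, as log2 ratios, with open circles for MN1 cells (n = 6), filled circles for neurons (n = 8), colours for genotypes and lines for medians. Hmgcs1 and Sqle sit higher in all 8 neuron cultures than in any MN1 culture, while Insig1 and Idi1 overlap.

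This comparison depended on the scaling between footprint and total mRNA libraries. The median difference over all genes was 0.20 with TMM scaling and -0.02 with RLE scaling, so part of each value is shared by all genes. Relative to that median, Hmgcs1 was higher by 0.69, Sqle by 0.55, Srebf2 by 0.49, Cyp51 by 0.38 and Fdps by 0.87, and over the 21 alternatives these relative values stayed at 0.61 to 0.90, 0.47 to 0.76, 0.44 to 0.70, 0.26 to 0.59 and 0.71 to 1.08. Of all genes, 88.3% had a smaller difference than Hmgcs1 and 76.5% a smaller one than Cyp51. With RLE scaling 2 of the genes remained called, Hmgcs1 (0.67, adjusted p = 0.011) and Sqle (0.53, adjusted p = 0.044), and with DESeq2 3, Hmgcs1, Sqle and Srebf2. Without MN1 hTDP-43 replicate 1, or with only the neuron cultures of over 500000 footprint reads, 0 were called, and the values were 0.63 and 0.64 for Hmgcs1.

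Over all genes tested, 5.94% had a higher ratio in neurons and 2.13% a lower one, with a median difference of 0.20. The list counts below are from the main fit, and their change with scaling or left-out cultures was not tested. Of the other lists, 5 of 14 further synthesis genes had a higher ratio in neurons and 0 a lower one, among them Mvd (0.70), Fdft1 (0.67), Sc5d (0.59) and Msmo1 (0.58). Of 11 genes of SREBP control, 5 were higher, among them Mbtps2 (0.99), Srebf1 (0.98), Erlin2 (0.76) and Rnf145 (0.73). Mylip (0.93) was the only one of 7 uptake genes, and Me1 (0.63) and Mid1ip1 (-1.62) the only ones of 12 fatty acid genes, that were called. None of the 8 isoprenoid or 8 tested efflux genes was called.

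Expression of hTDP-43 or hTDP-43 A315T moved none of the 8 genes past the test. Each group was compared with its control and with the other transgene group, separately for footprints and total mRNA, which makes 12 comparisons, and the median log2 fold change of the 8 genes lay between -0.09 and 0.13 in all of them. In 0 of 12 was any of the 8 genes called by edgeR at an adjusted p of 0.05, and the same count was 0 with the replicate number as a block and 0 with DESeq2. At an unadjusted p under 0.05 and without the block, 1 gene each passed in 3 of the comparisons, Idi1 in both library types of MN1 cells (hTDP-43 A315T against GFP) and Sqle in neuron footprints (hTDP-43 A315T against hTDP-43). With the block, 4 genes passed at this level in MN1 total mRNA for the mutant against GFP, Idi1, Srebf2, Hmgcs1 (log2 fold change -0.22, edgeR unadjusted p = 0.038, adjusted p = 0.25) and Insig1 (0.18, edgeR unadjusted p = 0.043, adjusted p = 0.27). In MN1 footprints 2 passed in that comparison, Idi1 and Insig1 (0.27, edgeR unadjusted p = 0.019, adjusted p = 0.46). In 6 of the other 10 comparisons 1 gene passed with the block, and in 4 none did. Fdps fell below the count filter in MN1 footprints in both comparisons with hTDP-43, so 7 genes were tested there.

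Few genes at large were called without the block either. The shares passing are given in the order mutant against GFP (WT in neurons), hTDP-43 against GFP (WT in neurons) and mutant against hTDP-43. Among MN1 footprints they were 0.0115% (of 8659 genes), 0% and 0%. In MN1 total mRNA they were 0.00965%, 0.01% and 0%, and in neurons they were 0% in all 3 comparisons of each library type. With the block they were 0.624%, 0.156% and 0.706% for MN1 footprints, 2.73%, 0.472% and 0.754% for total mRNA of MN1 cells, 0.0841%, 0.0616% and 0.179% in neuron footprints, and 0.293%, 0.169% and 0% in neuron total mRNA.

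In MN1 cells Idi1 was, without the block, the only one of the 8 genes with an unadjusted p under 0.05. Its total mRNA was 73.8 and 72.2 CPM in the GFP cultures, 71.6 and 59.4 CPM with hTDP-43, and 55.8 and 61.1 CPM with hTDP-43 A315T. Both hTDP-43 A315T values were below both GFP values, with a log2 fold change of -0.39 (SE 0.17, edgeR unadjusted p = 0.046, adjusted p = 0.85). With the block the adjusted p was 0.14. The footprints of Idi1 were 39.9 and 37.0 CPM with GFP, 27.9 and 23.8 CPM with hTDP-43, and 25.3 and 24.6 CPM with hTDP-43 A315T, which rest on 9 to 40 reads. The fold change between the hTDP-43 A315T and GFP cultures was -0.63 on the log2 scale (SE 0.29, edgeR unadjusted p = 0.049, adjusted p = 1). In neurons, Idi1 total mRNA differed by 0.24 and footprints by -0.37 between hTDP-43 A315T and WT, neither called.

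Srebf2 came closest to a call. Its MN1 total mRNA was 436 and 497 CPM with GFP, 443 and 491 CPM with hTDP-43, and 564 and 613 CPM with hTDP-43 A315T. The hTDP-43 A315T cultures were above both other groups, by 0.27 against GFP on the log2 scale (SE 0.13, edgeR adjusted p = 0.85), and the adjusted p was 0.076 with the block, where 2.73% of all genes passed. Srebf2 footprints in MN1 cells differed by 0.13 (SE 0.17) in the same comparison. In neurons, Sqle footprints were 585, 504 and 594 CPM with hTDP-43 and 498, 409 and 432 CPM with hTDP-43 A315T, and 474 and 471 CPM in WT. The mutant was thus below the hTDP-43 cultures in every library, by -0.34 (SE 0.14, edgeR unadjusted p = 0.032, adjusted p = 1).

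**Figure D4:**
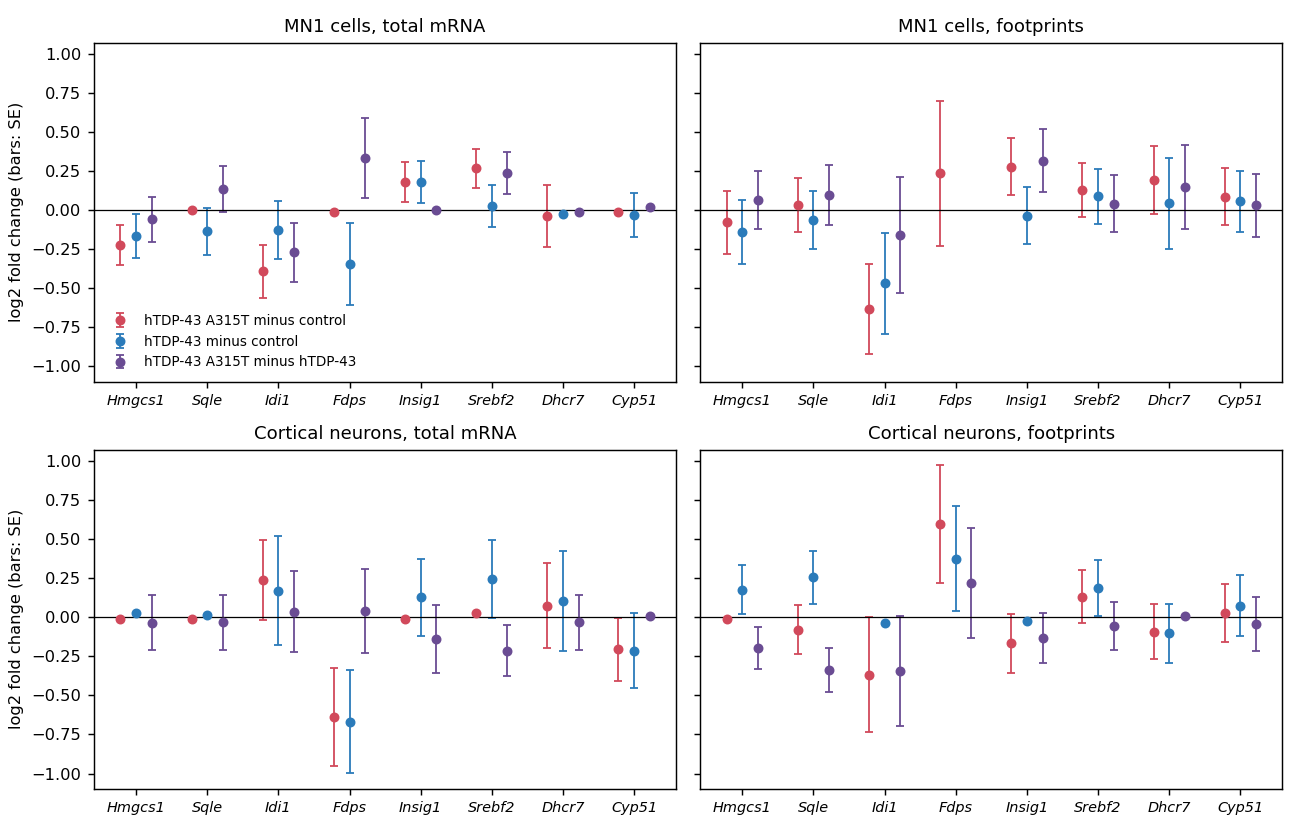
Log2 fold changes of each gene between genotypes in MN1 cells (top, 2 cultures a group) and neurons (bottom, 2 WT and 3 cultures of each other group), in total mRNA (left) and footprints (right), with SE bars. Bars are left out where the unadjusted p was above 0.9, and Fdps was not tested in 2 of the footprint comparisons. None of the points was called, and the widest bars belong to Idi1 and Fdps.

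Translational efficiency, the change in footprints beyond that in total mRNA (an interaction term), gave no call either. In the 6 comparisons, 0 of the 8 genes were called by edgeR without and with the culture as a block, and by DESeq2. At an unadjusted p under 0.05, only Fdps passed, in neurons, with log2 differences of 1.23 (SE 0.53, edgeR unadjusted p = 0.038, adjusted p = 1) for hTDP-43 A315T and 1.16 (SE 0.50, edgeR unadjusted p = 0.037, adjusted p = 1) for hTDP-43. Both share the WT cultures. Fdps footprints rested there on 5 to 73 reads per library. Of all genes 0% were called in each of the 6 comparisons without the block, and with it in MN1 cells 0.0198% when hTDP-43 A315T was set against GFP and 0.0399% when it was set against hTDP-43, with 0% in the other 4. The effect of genotype was also compared between the cell types, and the difference was called for 0 of the 8 genes in footprints or total mRNA, with the smallest unadjusted p, 0.054 (edgeR), for Sqle footprints.

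The rest of the pathway gave the same counts. Of the 14 further synthesis genes, the 11 of SREBP control, the 8 of the isoprenoid branch and those tested of sterol uptake and of efflux, 0 were called in the 12 genotype comparisons, with or without the block. Among 11 tested fatty acid genes 1 was called, only with the block. This was Mid1ip1, an activator of acetyl-CoA carboxylase also known as MIG12, whose footprints were higher with hTDP-43 A315T than with GFP in MN1 cells (log2 fold change 1.25, edgeR adjusted p = 2.1e-05), and than with hTDP-43 in MN1 cells (0.98, edgeR adjusted p = 8.9e-08) and in neurons (1.66, edgeR adjusted p = 0.0020). Without the block the values were 1.18, 0.97 and 1.22 (edgeR adjusted p = 1 in each). The weight of other genes in the estimated spread (prior degrees of freedom) was 208 in the blocked MN1 footprint test of hTDP-43 A315T against hTDP-43. Without the block it was 9.43. The adjusted p with the block thus rests mainly on a spread pooled over genes. Mid1ip1 footprints also differed by culture date in MN1 cells (-1.03, edgeR adjusted p = 1.7e-04), and the part of the date was not tested further.

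Culture date was called for 1 of the 8 genes, Dhcr7, and for 6 further synthesis genes in MN1 total mRNA. All replicate 1 cultures of MN1 cells carry one date and all replicate 2 cultures another. Dhcr7 total mRNA was 61.2, 61.7 and 69.4 CPM on the first date and 87.5, 83.0 and 83.9 CPM on the second, with no overlap. The log2 difference, within groups, was 0.39 (SE 0.11, edgeR adjusted p = 0.018), and Dhcr7 was the only one of the 8 called, where 14.9% of 10277 genes were. Sqle (0.20, SE 0.07, edgeR adjusted p = 0.069) and Srebf2 (0.14, SE 0.07, edgeR adjusted p = 0.16) were not called. Of the 14 further synthesis genes 6 were higher on the second date and 0 lower, Tm7sf2 (1.27), Acat2 (0.53), Pmvk (0.48), Fdft1 (0.33), Lss (0.33) and Mvd (0.30), with 2 uptake genes, Npc2 (0.45) and Lrp1 (0.41). The 14.9% of all genes covers both directions. Over all genes DESeq2 called 244 by date, against 1536 with edgeR. Whether the calls of these further genes hold with DESeq2 was not tested. The call of Dhcr7 was lost with DESeq2 (adjusted p = 0.30) and when any GFP or hTDP-43 culture was left out (edgeR adjusted p = 0.078 to 0.13).

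In MN1 footprints 0 of 8 genes differed by date (4.73% of 8535 genes did), and 3 had an unadjusted p under 0.05, Hmgcs1 (0.27), Cyp51 (0.22) and Insig1 (0.22). DESeq2 called 0. Dhcr7 footprints (0.34, edgeR adjusted p = 0.28) were called without hTDP-43 A315T replicate 1 (0.66, edgeR adjusted p = 0.013) or replicate 2 (0.65, edgeR adjusted p = 0.016). In neurons, with 3 dates, 0 of 8 were called by edgeR or DESeq2 in footprints (2.36% of 9212 genes) or total mRNA (0.0733% of 12277 genes), where 3 and 1 had an unadjusted p under 0.05. Idi1 total mRNA was 102 and 111 CPM in the cultures of replicate 1 and 58.3 to 77.8 CPM in the other 6, with no overlap (edgeR adjusted p = 0.60). Without hTDP-43 A315T replicate 3, Idi1 (edgeR adjusted p = 0.017) and Dhcr7 (edgeR adjusted p = 0.043) were called.

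Within a cell type some pairs of the 8 genes varied together and others did not. Over the 14 total mRNA libraries, centred within cell type, the mean of the pairwise Pearson r was 0.21, from -0.30 for Hmgcs1 and Dhcr7 to 0.79 for Hmgcs1 and Idi1, with Sqle and Dhcr7 at 0.75 and Fdps and Cyp51 at 0.71. Of the 8 genes, Sqle (0.81) and Insig1 (0.81) followed the mean of the 8 genes most closely. Each of the 8 is part of that mean, which raises its r, so these values cannot be set beside those of other genes. Among the other genes of the 9461 compared, those most like that mean were the synthesis genes Hsd17b7 (r = 0.84) and Lss (0.83), followed by Sipa1l2 (0.82), Bicd2 (0.80), Tecpr2 (0.78), Tmco3 (0.77), Dusp1 (0.76), Pygb (0.73), Itgb5 (0.72) and Pdlim3 (0.72). The 14 further synthesis genes had r from 0.17 (Fdft1) to 0.84 (Hsd17b7) in total mRNA. The median over all genes was 0.04. In footprints Hsd17b7 had r = 0.64 and Lss 0.18, and none of these 10 most alike genes was among the 10 most alike there. Over the 14 footprint libraries the mean pairwise r of the 8 genes was 0.35, from -0.27 to 0.79. Pairs of other genes were not examined. Libraries share dates and differ in depth, so these correlations describe these libraries only.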

How the data were processed

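Ribosome footprints and poly(A)-selected mRNA of 14 cultures were sequenced (28 libraries). Per the labels and the study's methods, the authors trimmed reads (cutadapt 1.8.1), removed those matching annotated non-coding RNAs, aligned the rest with Bowtie2 and TopHat2, and deposited gene counts from featureCounts 1.4.4 over Ensembl exons of GRCm38.p4, with no strand or multi-mapping option given in the sources used here. The count tables were used as deposited. Counts were filtered with the filterByExpr function of edgeR. It asks for a minimum count of 10, scaled to library size, in as many libraries as the smallest group holds, and 15 in total. The genes kept were scaled by TMM and tested with edgeR 4.0.16 (quasi-likelihood F test, R 4.3.3). Adjustment was by Benjamini-Hochberg over all genes tested, with a threshold of 0.05. SE was the log2 value over the root of F, not computed at p above 0.9. Groups came from the labels. The alternatives were RLE scaling, no filter, DESeq2 1.42.0, protein-coding genes only, control groups only, a replicate block and leaving out each culture. Leaving out the cultures with the most Lars2 and the shallow footprint cultures was added after seeing the data. Scripts were tested on simulated data.

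Titles give same-numbered cultures of a cell type the same date, except for the year of the footprint library of GFP replicate 1, so the numbers pair the cultures. The study's methods state no block, and the main fits have none. The mean correlation of same-numbered cultures after centring on groups was 0.336 (0.296 to 0.381) in MN1 footprints, 0.442 (0.392 to 0.524) in MN1 total mRNA, 0.120 (0.0293 to 0.248) in neuron footprints and 0.171 (-0.175 to 0.520) in neuron total mRNA. The genes, lists and tests were chosen with earlier results of these data known. The text gives all 8 genes, and of the other lists the genes called or those with the largest differences. Some genes of those lists are not reported here. Near-identical sequences were found with blastn 2.17.0.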

Additional observations from a re-analysis of the deposited data

Results flagged for a closer look

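The ratio of footprints to total mRNA differed between cortical neurons and MN1 cells, by an interaction test (edgeR), for 5 of the 8 genes. The log2 difference was 0.89 for Hmgcs1, 0.75 for Sqle, 1.07 for Fdps, 0.69 for Srebf2 and 0.58 for Cyp51, with adjusted p of 9.8e-04, 0.0040, 0.044, 0.0092 and 0.024. In 21 alternatives these genes were called 19, 19, 7, 18 and 9 times. Cell type, culture medium, Ara-C, plasmid transfection, culture date and cycloheximide before lysis differed together, and their parts in the ratio cannot be told apart.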

How the results depend on the processing

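None of the 8 genes was called between genotypes in any alternative of the 12 comparisons or of translational efficiency, the replicate block included. Between the cell types in total mRNA, 6 genes were called, and 2 with the control groups only. For the footprint to total mRNA ratio between cell types, 5 genes were called, against 2 with RLE scaling, 3 with DESeq2, 0 with neuron cultures of over 500000 footprint reads only, and 0 (without MN1 hTDP-43 replicate 1) to 5 when each culture was left out. It was 3 without MN1 A315T replicate 2, GFP replicate 1 or GFP replicate 2, and without neuron A315T replicate 1, hTDP-43 replicate 1 or hTDP-43 replicate 3. Over all genes, 997 were called in that comparison, 195 with the deepest neuron cultures and 224 without MN1 hTDP-43 replicate 1; the cause was not tested. For the MN1 culture date, the count was 0 in footprints, with 0 to 1 when a culture was left out, and 1 in total mRNA, with 0 under DESeq2 and 0 to 1 when a culture was left out. For the neuron culture date in total mRNA it was 0, with 0 to 2 when a culture was left out. No value changed sign among called results. The replicate block changed 1 call of these genes, Sqle in MN1 footprints against total mRNA (0.19, edgeR adjusted p = 0.046). Depth limits Fdps and Idi1 most, at 4 and 5 reads in their lowest footprint libraries, and the neuron footprint library with 166064 reads most among libraries.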
